A study of Mus musculus with 4 samples.

Results

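Airway-type secretory cells of the mouse nose were sought among dissociated cells of the main olfactory epithelium by the transcripts of 3 genes. A cell barcode was taken as a member when it had at least 500 detected genes, at most 10% of its unique molecular identifiers (UMIs, each standing for 1 captured RNA molecule) in mitochondrial genes, at least 20 UMIs of Reg3g, Bpifa1 and Cyp2f2 together with at least 2 of the 3 detected, at most 15 UMIs of Omp and at most 20 of Cyp2g1. Of 41911 barcodes in the 4 libraries, 39715 passed the 2 quality limits and 1806 were members, 4.55% of those that passed. They numbered 639 and 438 in the 2 female libraries (female 1, then female 2) and 316 and 413 in the 2 male ones (male 1, then male 2); values below keep that order unless libraries are named. The tissue came from wild-type C57BL/6J mice of 3 months, 2 libraries from females and 2 from males, with no treatment, and was dissociated with papain before 10x Genomics 5′ single-cell RNA sequencing. No group carried an engineered allele, and the labels do not say how many animals each library holds. The series as a whole concerns olfactory sensory neurons and their neurexins. The comparison its labels allow for these barcodes is between the sexes. Members were also set beside 8477 sustentacular barcodes, those with at least 30 Cyp2g1 UMIs, and beside the 29432 other barcodes that passed.

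The nasal cavity is lined partly by olfactory and partly by respiratory epithelium. In the respiratory part, secretory cells and submucosal glands release mucins, antimicrobial proteins and lipid-binding proteins into the airway surface liquid, ciliated cells move that liquid, and keratin 5 basal cells renew the layer. In the olfactory part, sustentacular cells surround the neurons and carry much of the tissue's detoxifying enzymes, and Bowman's glands secrete the mucus that covers the cilia of the neurons. Bpifa1 (also called SPLUNC1) encodes a secreted surfactant protein of the upper airway, Reg3g a secreted lectin that acts on Gram-positive bacteria, and Cyp2f2 a cytochrome P450 known from airway club cells. Chil4 encodes a secreted chitinase-like protein.

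The genes that chose the members lie, in GRCm38 coordinates with GENCODE M21 annotation, at chr2:154142880-154149219 on the plus strand (Bpifa1, ENSMUSG00000027483), chr6:78466269-78468872 on the minus strand (Reg3g, ENSMUSG00000030017) and chr7:27119909-27133660 on the plus strand (Cyp2f2, ENSMUSG00000052974). All 3 are protein-coding genes, and the values below count reads over the gene, not over one exon. In UMIs summed over the members of a library and expressed per 1000000 UMIs (CPM), Bpifa1 stood at 90089, 121027, 119944 and 103725 CPM. Reg3g stood at 10104, 8994, 11355 and 11342 CPM in the same order, and Cyp2f2 at 4304, 3449, 3982 and 4692 CPM. These values chose the members and are given without a test. Members held 84.4 to 88.5% of the Bpifa1 UMIs and 80.2 to 82.5% of the Reg3g UMIs of the barcodes that passed, but only 7.88 to 15.8% of those of Cyp2f2, of which sustentacular barcodes held 77.2 to 86.7%. The mean Cyp2f2 level of sustentacular barcodes, 4809 ± 101 CPM (SD, n = 4 libraries), was close to that of the members, 4107 ± 526 CPM (SD, n = 4 libraries).

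Most members met the rule through Cyp2f2. Of the 1806 members, 977 (54.1%) had at least 10 UMIs of Cyp2f2 and fewer than 10 of both Reg3g and Bpifa1, and 363 (20.1%) had at least 10 of all 3. The second detected gene was often a few UMIs of Bpifa1. At least 1 Bpifa1 UMI was found in 90.6 to 97.0% of the members of a library and also in 81.3 to 91.5% of its neurons, taken as barcodes with more than 15 Omp UMIs and at most 20 of Cyp2g1 (17801 in all), a cell type that should lack the gene. The median neuron held 2 or 3 Bpifa1 UMIs, and neurons had median totals of 8233 to 9106 UMIs against 10578 to 11986 in members. With each barcode thinned to 2000 UMIs, which left out 46 neurons and 27 members below that depth, Bpifa1 was seen in 37.1 to 51.6% of neurons and 51.2 to 65.6% of members. A few Bpifa1 UMIs therefore did not separate members from neurons, although members were more often positive in the thinned counts. Reg3g and Cyp2f2 were less widespread, with 1 UMI or more in 16.8 to 21.3% and 32.0 to 40.8% of neurons. At 10 UMIs or more, Bpifa1 was found in 0.550 to 4.30% of neurons and 29.3 to 36.8% of members.

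Barcodes just inside and just outside the threshold had these values. The 122 barcodes with 20 to 22 UMIs over the 3 genes had medians of 0 Reg3g, 3 Bpifa1 and 17 Cyp2f2 UMIs. The 148 with 17 to 19 UMIs that met every other condition had medians of 0, 3 and 14. Median depths were 8177 and 7596 UMIs.

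The members did not form 1 cell type. They were clustered on genes other than those of the rule into 15 clusters, and clusters were named only where a list of cell type markers pointed to a type. Of the 1806 members, 381 (21.1%) fell into 3 secretory-like clusters (2, 9 and 10), which held 89.2% of the members' Bpifa1 UMIs, 87.7% of their Reg3g UMIs and 36.1% of their Cyp2f2 UMIs. The other clusters were sustentacular-like (cluster 1, 472 members, 26.1%), basal-like (clusters 3, 4, 6 and 8, 573 members, 31.7%), ciliated-like (clusters 5 and 11, 186 members, 10.3%) and Bowman's gland-like (clusters 12 and 13, 77 members, 4.26%). Clusters 7, 14 and 15, with 117 members (6.48%), were given no cell type, although they too held markers of listed types (below). The name of the secretory-like clusters rests on Reg3g, Bpifa1 and Cyp2f2, the rule's own genes, and so is no check of the label. Chil4, the other marker, had 10 or more UMIs in 12 members of cluster 2 and in 1 each of clusters 9 and 10. The sustentacular-like cluster 1 had 18 such members, and clusters 5, 7 and 8 had 1 each. Chil4 thus did not single out the secretory-like clusters. Since markers of other types defined most clusters, the whole set is called by its rule here. At a finer setting, the 59 members of cluster 9 and the 43 of cluster 10 each stayed in 1 cluster, while cluster 2 was split into parts of 160, 105 and 14.

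**Figure D1:**
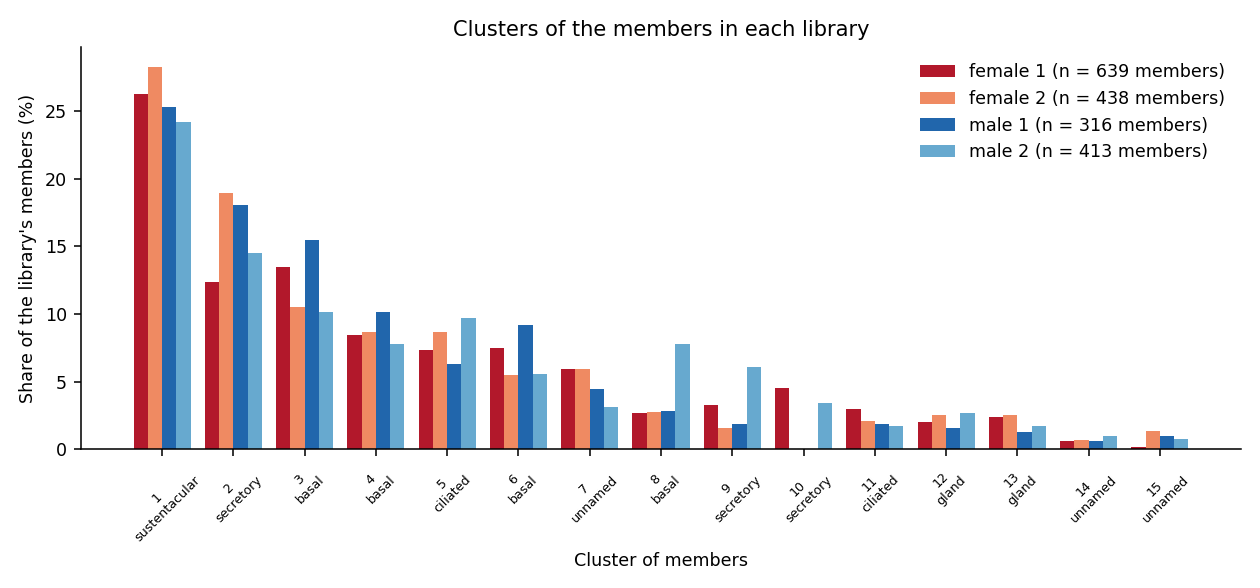
Share of each library's members (%, vertical axis) in the 15 clusters (horizontal axis), with 1 bar per library. The sustentacular-like cluster 1 holds 24.2 to 28.3% of the members in every library, and cluster 10 is present only in female 1 and male 2.

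Members that had at least 10 UMIs of Cyp2f2 alone made up 409 of the 472 sustentacular-like, 403 of the 573 basal-like and 71 of the 77 gland-like members, but 2 of the 381 secretory-like ones. The 3 secretory-like clusters took similar shares of each library: 129 (20.2%) and 90 (20.5%) of the female members, and 63 (19.9%) and 99 (24.0%) of the male ones.

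**Figure D2:**
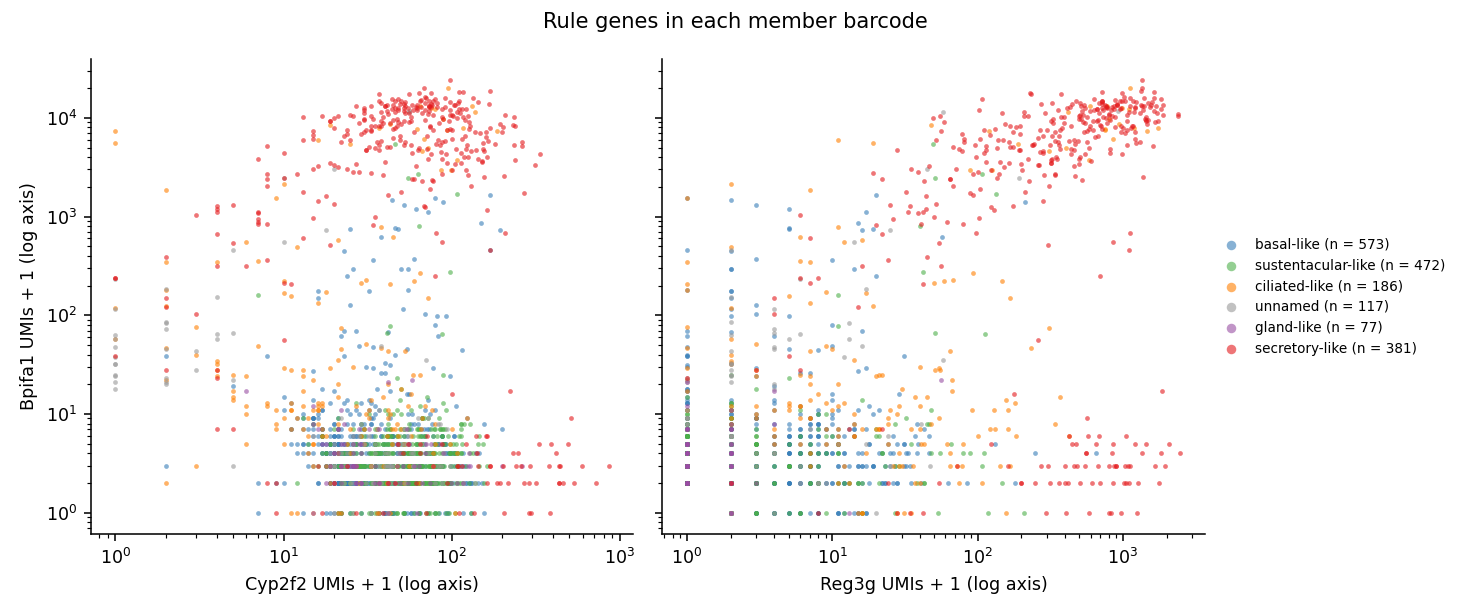
Bpifa1 UMIs of each of the 1806 members (vertical, UMIs plus 1, log axis) against Cyp2f2 (left) and Reg3g (right), 1 point per barcode, coloured by the group of its cluster. The 320 members with at least 1000 Bpifa1 UMIs are mostly secretory-like (278 of 320), and most other members lie at low Bpifa1 with Cyp2f2 above 10 UMIs.

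Cluster 2 (79, 83, 57 and 60 members) was the Bpifa1-rich secretory-like population. Bpifa1 alone took 37.4% of its UMIs, at 365804, 382763, 383050 and 362915 CPM in the 4 libraries, and the median member held 7751 Bpifa1 and 374 Reg3g UMIs. The 5 genes with the highest ratio to the other members were Bpifb1, Scgb3a1, Bpifa1, Tff2 and Pglyrp1. Bpifb1, which encodes a larger relative of Bpifa1, stood at 1466 ± 326 CPM (SD, n = 4 libraries), and its pooled level was 21-fold that of the other members. Scgb3a1, a secretoglobin of airway secretory cells, was at 664, 778, 1146 and 630 CPM, highest in male 1. Tff2, a trefoil peptide that stabilises mucus, was at 1610 ± 217 CPM and the bacterial-wall sensor Pglyrp1 at 1266 ± 105 CPM (SD, n = 4 libraries). Pigr, the receptor that carries polymeric antibodies across epithelium, was at 827 ± 127 CPM, and the gel-forming mucin Muc5b at 1257 ± 152 CPM (SD, n = 4 libraries). The libraries differed more in the antimicrobial genes Ltf (lactoferrin), from 702 to 2895 CPM, and Lyz2 (lysozyme), from 970 to 2763 CPM. Ltf was unevenly spread in every library: the 3 highest barcodes held 54.5, 51.4, 56.7 and 57.3% of the library's cluster 2 Ltf UMIs.

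Markers of lung club and goblet cells were found in part. Of the club list, Scgb3a1 was present (above), and of the goblet list Muc5b was too, with Agr2, a disulfide isomerase needed for mucin folding, at 757 ± 79 CPM in cluster 2 (SD, n = 4 libraries). Agr2 was not particular to cluster 2, with pooled levels of 3405 and 3450 CPM in the gland-like clusters 12 and 13. In clusters 14 and 15 it was at 529 and 601 CPM. In the members as a whole, Muc5b but not Agr2 was at least 2-fold higher than in sustentacular barcodes in every library. Scgb1a1 and Scgb3a2, secretoglobins of lung club cells, had 0 UMIs among the 24453578 UMIs of all members, which allows up to 0.123 CPM for counting error alone. Muc5ac, the inducible goblet mucin, had 200 UMIs in all members, and in cluster 2 it stood at 48.7 CPM in female 1 against 2.3 to 4.2 CPM in the others. Spdef, a goblet transcription factor, was at 15.3 to 17.3 CPM in the members of each library.

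Cluster 9 (21, 7, 6 and 25 members) was rich in Reg3g and Cyp2f2 and poor in Bpifa1. Its median member held 668 Reg3g, 201 Cyp2f2 and 2 Bpifa1 UMIs, the last being the count of a typical neuron. Reg3g stood at 45467, 62214, 73530 and 49945 CPM, above every library of cluster 2, where it ranged from 24426 to 31329 CPM. Cyp2f2 stood at 15422 ± 3033 CPM (SD, n = 4 libraries), against 2871 ± 242 CPM in cluster 2. The 5 leading genes were Gp2, Hp, Cyp4a12a, Irx5 and Krt4. Gp2 encodes a glycoprotein that binds bacterial fimbriae, and stood at 778, 484, 2288 and 738 CPM in cluster 9 against 27.1 to 98.6 CPM in cluster 2. Hp, the haemoglobin-binding plasma protein haptoglobin, was at 837 ± 278 CPM (SD, n = 4 libraries). Ltf was at 6005 ± 3318 CPM and Lyz2 at 11602 ± 7569 CPM, while Muc5b was at 20.8 ± 10.1 CPM and Scgb3a1 at 28.1 ± 22.9 CPM (SD, n = 4 libraries). Cluster 9 thus had high Ltf and Lyz2 with little Muc5b, in libraries that contributed as few as 6 members. High Ltf was not particular to it: the gland-like cluster 13 had Ltf at a pooled 4012 CPM and Muc5b at 218 CPM, with 0 UMIs of Lyz2.

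Cluster 10 was found in 2 libraries only, with 29 members in female 1 and 14 in male 2. It had 0 of 438 members in female 2 and 0 of 316 in male 1, which allows shares of up to 0.685% and 0.949% of their members. Bpifa1 stood at 200814 and 220048 CPM in female 1 and male 2, below the 365804 and 362915 CPM of cluster 2 in the same libraries. Reg3g was at 22386 and 25425 CPM against 28640 and 26141 CPM, and Muc5b at 2149 and 1733 CPM against 1263 and 1067 CPM. Its 5 leading genes were Sult1c1, Olfr1228, Itln1, Fmo6 and Ttc36. The sulfotransferase Sult1c1 stood at 1661 and 1874 CPM, against 256 and 179 CPM in cluster 2 of the same libraries, and the monooxygenase Fmo6 at 912 and 832 CPM against 8.0 and 5.3 CPM. Vmo1, a secreted protein first known from egg vitelline membrane, was at 2572 and 2489 CPM against 146 and 133 CPM, and the alcohol dehydrogenase Adh1 at 1111 and 1310 CPM against 158 and 114 CPM. Scgb3a1 and Lyz2 were lower, at 19.3 and 50.7 CPM and at 297 and 36.2 CPM, against 664 and 630 CPM and 2763 and 2081 CPM in cluster 2. Among 2734 genes of at least 50 CPM in either cluster, 129 were at least 2-fold higher in cluster 10 in both libraries and 53 were at least 2-fold lower. The clusters were made from these genes, so the contrast is a description. The same libraries stood out when barcodes outside the membership rule were included. Among all barcodes that passed with at least 1000 Bpifa1 UMIs, those with at least 5 Fmo6 UMIs were 31 of 122 and 2 of 100 in the female libraries, and 0 of 65 and 18 of 87 in the male ones. Most of these carriers were members: 27 and 2 in the female libraries and 0 and 16 in the male ones. Fmo6 was taken from the leading genes of cluster 10, so this count is not a separate check. The 2 libraries with the population were of different sex.

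Bowman's gland-like members fell into 2 clusters that both had Sox9, Sox10 and Aqp5, a transcription factor pair and a water channel of gland cells. The other genes of that list were low: Gpx3 was at a pooled 1.7 and 29.7 CPM in clusters 12 and 13, against 418 CPM in cluster 6, and Bpifb9b at 6.7 and 3.5 CPM. Sox10 stood at 209 ± 37 CPM in cluster 12 (SD, n = 4 libraries) and at 0 to 1.3 CPM in the libraries of cluster 2. Cluster 12 (13, 11, 5 and 11 members) made Scgb1c1, a secretoglobin, at 185004, 146679, 160931 and 109478 CPM, Vmo1 at 45248 ± 4050 CPM and Muc5b at 7957 ± 2915 CPM (SD, n = 4 libraries). Its 5 leading genes were the transporter Slc22a20, the retinal-binding receptor Rgr, Gkn3, Chil6 and Col9a1. Cluster 13 (15, 11, 4 and 7 members) was led by Dcpp3, Dcpp1, the G-protein regulator Rgs5, the protease-inhibitor-like Wfdc18 and Dcpp2. Its pooled levels were 3670 CPM for Dcpp3, 15435 CPM for Rgs5 and 19500 CPM for Wfdc18, against 22, 301 and 1255 CPM in cluster 12. Dcpp3 was carried by few barcodes: 18 of 37 members of cluster 13 had any UMI, and of the Dcpp3 UMIs of all members, 2 barcodes held 958 and 415 of 1418 in female 1. Both gland-like clusters lacked the Bpifa1 and Reg3g signal, with medians of 2.5 and 2 Bpifa1 and 0 Reg3g UMIs, and entered the rule by Cyp2f2 medians of 54 and 25 UMIs.

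The sustentacular-like cluster 1 (168, 124, 80 and 100 members) held all 4 sustentacular markers, 3 of them below the level of sustentacular barcodes. Cyp2g1, which the rule capped, stood at 686 ± 12 CPM (SD, n = 4 libraries) against 13633 ± 994 CPM in sustentacular barcodes. Cyp1a2 was at 1054 ± 60 against 1969 ± 74 CPM, the mucin gene Muc2 at 791 ± 51 against 1468 ± 52 CPM, and the actin-associated Ermn at 405 ± 10 against 417 ± 18 CPM. Its leading genes were Tmod1, F830016B08Rik, Nipal1, St8sia6 and Gbp6. Cyp2f2 was at 4623 ± 261 CPM (SD, n = 4 libraries), close to the level in sustentacular barcodes, and the median of its members was 2 Bpifa1 and 0 Reg3g UMIs.

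Basal-like members expressed Krt5, Krt14 and Trp63, and their clusters differed in the level of Cyp2f2, a gene of the rule. The name rests on these markers, with Krt5 found in 221 of 223, 156 of 156, 124 of 124 and 70 of 70 members of clusters 3, 4, 6 and 8. Among the 10 genes of highest ratio to the other members, clusters 3, 4 and 6 had no basal marker, while cluster 3 had the fibroblast marker Col1a1 (in 9 members), cluster 6 the gland marker Gpx3, and cluster 8 Krt15 and the immune marker S100a8. Krt5 stood at 2338 ± 156, 3610 ± 253, 3598 ± 583 and 2173 ± 257 CPM in clusters 3, 4, 6 and 8 (SD, n = 4 libraries). Clusters 3 and 8 had Cyp2f2 at 6603 ± 657 and 6545 ± 1266 CPM, against 2406 ± 71 and 2785 ± 203 CPM in clusters 4 and 6 (SD, n = 4 libraries). Krt15, a basal keratin, was highest in cluster 8, at 2150 ± 627 CPM against 347 ± 210 CPM in cluster 3, and 32 of the 70 members of cluster 8 came from male 2. Cluster 4 was led by Cxcl14, Car10, Nrcam, G0s2 and Sbspon, cluster 6 by Cxcl10, Gpx3, Acta2, Cyp26a1 and Fst, and cluster 8 by Sprr2a3, Spink5, Krt6a, Pax7 and Irx3. Cluster 3 was led by Apod, Inmt, Slc5a5 and Col25a1, of which Apod came almost wholly from a few barcodes described below.

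Ciliated-like members carried both ciliary and, in some, secretory transcripts. In cluster 5 the ciliary regulator Foxj1 was at 1585 ± 172 CPM and Tmem212 at 1893 ± 196 CPM (SD, n = 4 libraries), and Fam166c, 1700024G13Rik, Tctex1d4, Morn5 and Aoc1 led it. Bpifa1 averaged 80724 ± 16364 CPM there, yet the median member held 16 Bpifa1 UMIs: 27 of 145 members had at least 1000 and carried 96.3% of the cluster's Bpifa1 UMIs. No member of cluster 5 was marked by the doublet caller. Whether those 27 barcodes held 2 cells was not tested further. Cluster 11 (41 members, led by Wdr49, Ankfn1, Slc6a20a, Cd177 and Dnah12) was shallow, with a median of 5734 UMIs and 5.0% mitochondrial UMIs.

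Cluster 7 (91 members) was led by the macrophage genes C1qb, C1qa, Csf1r, Il1b and Fcer1g and also held the immature neuron gene Gap43 at a pooled 616 CPM. The doublet caller marked 30 of its 91 members (33.0%), against 8.20 to 8.62% of all barcodes that passed and 0.969 to 3.76% of all members of a library. Cluster 15 (13 members, led by Neil3, Aurkb, Ccna2, Knl1 and Pbk) held Mki67 at a pooled 1138 CPM and Top2a at 815 CPM. It also held the sustentacular markers Cyp2g1 (461 CPM), Cyp1a2 (381 CPM), Ermn (198 CPM) and Muc2 (378 CPM). Cluster 14 (13 members) was led by Sprr2f, Cnmd, Tdgf1, Tafa2 and Adcy1. Its sustentacular markers were at a pooled 1129 (Cyp1a2), 1215 (Muc2), 459 (Cyp2g1) and 116 CPM (Ermn). The gland marker Aqp5 was at 1220 CPM in cluster 14, with 0 UMIs of Sox9 and Sox10.

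**Figure D3:**
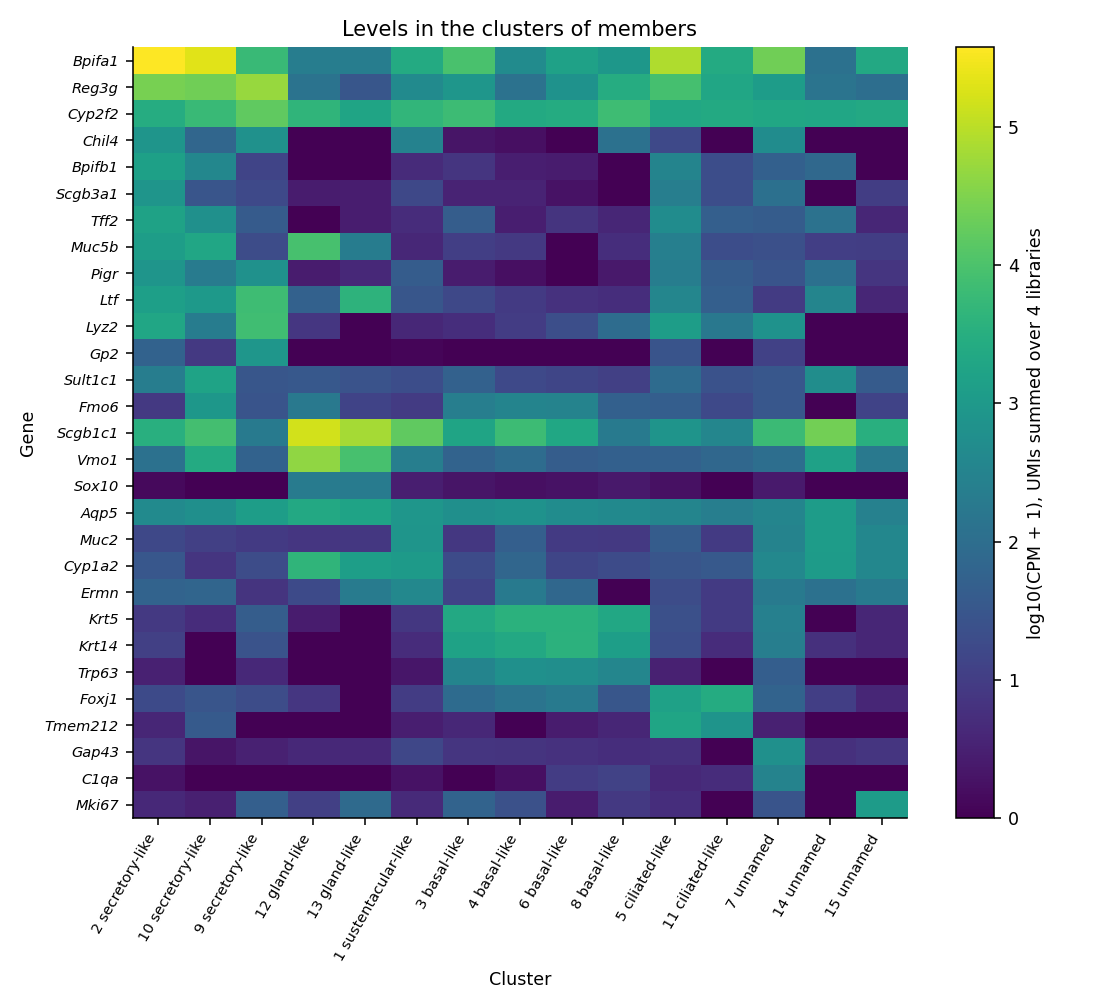
Level of 29 genes (rows) in the 15 clusters of members (columns), as log10 of CPM plus 1 in UMIs summed over the 4 libraries. Bpifa1 and Reg3g are brightest in clusters 2 and 10, Reg3g in cluster 9, Scgb1c1 and Vmo1 in clusters 12 and 13, and Krt5, Krt14 and Trp63 in clusters 3, 4, 6 and 8.

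Set against sustentacular barcodes, the members as a whole were richer in most listed secreted defence genes, and xenobiotic enzymes were split. A gene was counted as higher or lower when its level differed at least 2-fold in that direction in each of the 4 libraries, among 8067 genes of at least 20 CPM in either class. By that count 510 genes (6.32%) were higher in members and 651 (8.07%) lower, with a median ratio of 0.806 over all genes. The rule's own contrast gave these counts, so they are a description of the set. Of 30 listed secreted defence genes, 16 reached 20 CPM, 14 were higher and 0 lower, with a median ratio of 22.7. Without Reg3g and Bpifa1, which the rule used, 12 of 14 were higher, with a median ratio of 15.7. Bpifb1 stood at 259, 520, 547 and 348 CPM in members against 1.0 to 5.3 CPM, a ratio of 193. Wfdc2, a secreted protease inhibitor, was at 3187 ± 373 against 281 ± 46 CPM, Lyz2 at 948 ± 158 against 16.2 ± 7.6 CPM and Ltf at 776 ± 171 against 65.3 ± 15.4 CPM (SD, n = 4 libraries). Scgb1c1 did not meet the count, at 11353 ± 1627 against 5367 ± 651 CPM. Of the 20 mucus genes 10 reached 20 CPM, of which 4 were higher (Tff2, with a ratio of 130, Muc5b, with 25.3, Muc20 and Muc1) and 1 was lower (Muc2, with the level in sustentacular barcodes 6.23-fold that in members). The median ratio of this list was 1.44.

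Of the 33 xenobiotic enzymes, 31 reached 20 CPM, 5 were higher and 9 lower, with a median ratio of 0.821, near the 0.806 of all genes. Without Cyp2f2 and Cyp2g1, which the rule used, 5 were higher, 8 lower and 16 neither. The nicotine and coumarin hydroxylase gene Cyp2a5 was at 6954 ± 508 CPM in members and 25273 ± 1626 CPM in sustentacular barcodes, the odorant glucuronosyltransferase Ugt2a1 at 2388 ± 184 and 5753 ± 272 CPM, and Cyp1a2 at 442 ± 56 and 1969 ± 74 CPM (SD, n = 4 libraries). The aldehyde dehydrogenase Aldh3a1 went the other way, at 514 ± 82 against 6.6 ± 2.7 CPM. Cbr2, a carbonyl reductase of airway cells, was near equal at 7694 ± 677 and 9492 ± 592 CPM. Among 18 airway transcription factors, of which 13 reached 20 CPM, Foxa1 (114 ± 8 against 3.9 ± 0.8 CPM), Elf3 and Ehf were higher and 0 were lower. Foxa1, a forkhead factor of airway epithelium, was at a pooled 137 CPM in cluster 2, 214 in cluster 9 and 146 in cluster 10, but at 6.78 to 15.2 CPM in the libraries of the sustentacular-like cluster 1. The secretory pathway machinery did not separate the classes: of 18 genes, 17 reached 20 CPM and 0 were higher or lower, with a median ratio of 1.13. Of the 19 ion and fluid transport genes, 13 reached 20 CPM, 3 were higher (Car12, Scnn1a and Ano1) and 1 lower (Car2).

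Levels of the neighbouring cell types moved with these groups. All 4 basal markers were higher in members than in sustentacular barcodes, with Krt5 at 661 ± 88 against 12.8 ± 2.1 CPM, and all 4 ciliated markers were higher, with Tmem212 at 204 ± 34 against 2.6 ± 1.5 CPM (SD, n = 4 libraries). Cyp2g1 and Omp were lower, as the limits of the rule set them. The other 3 sustentacular and 3 mature neuron markers were also lower, with the olfactory G protein gene Gnal at 73.9 ± 14.2 against 577 ± 35 CPM (SD, n = 4 libraries), and their direction is not independent of those limits. Of 6 immune markers, C1qa and C1qb were higher, at 20.0 ± 13.4 and 20.9 ± 9.4 CPM against 4.3 ± 2.4 and 4.9 ± 2.5 CPM. Summed levels mix all clusters. Tmem212 stood at a pooled 1850 CPM in cluster 5 against 12.1 CPM in the other members. C1qa and C1qb stood at 305 and 327 CPM in cluster 7 against 1.7 CPM each in the other members. The part of each cell type in these ratios was not tested.

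**Figure D4:**
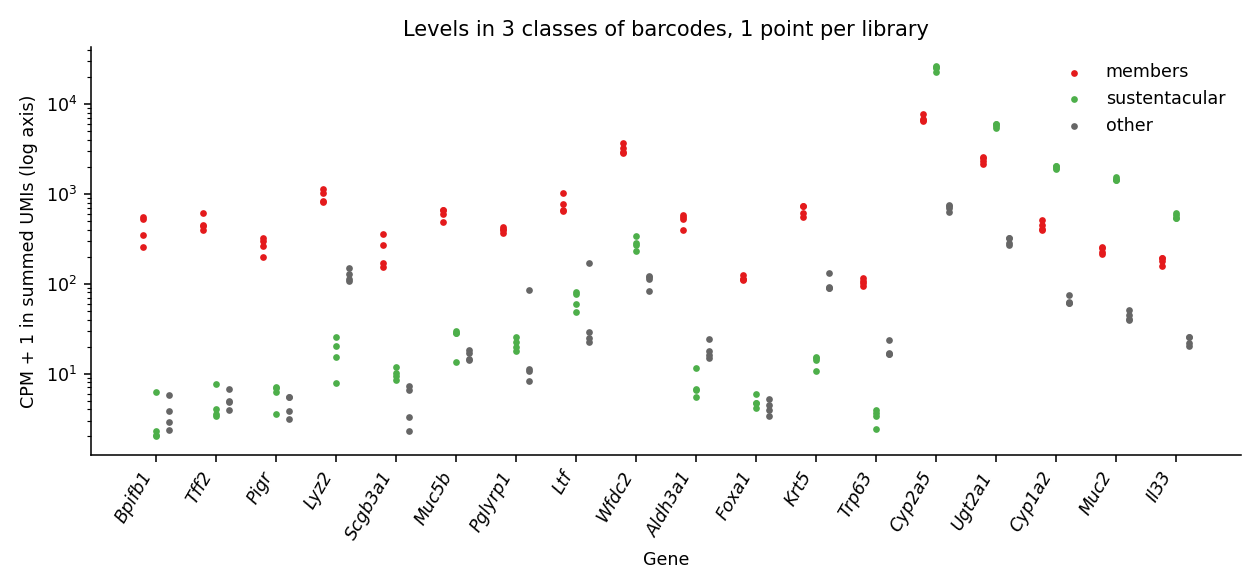
Level of 18 genes (horizontal axis) in members, sustentacular barcodes and other barcodes that passed, as CPM plus 1 in summed UMIs (log axis), 1 point per library. From Bpifb1 to Trp63 every library of the members lies above every library of the sustentacular barcodes, and from Cyp2a5 to Il33 below.

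Against the other barcodes that passed, mostly neurons, 1387 of 8970 genes (15.5%) were higher in members and 2202 (24.5%) lower, with a median ratio of 0.708. The rule's own contrast gave these counts too, so they are a description. The 20 genes with the highest ratios among those of at least 50 CPM in every library's members came from several of the clusters above. They began with Bpifb1 (154-fold), Reg3g (122-fold), Tff2 (117-fold) and Bpifa1 (98.7-fold), of which Reg3g and Bpifa1 had chosen the members. The 20 included Pigr, Adh7, Scgb3a1, Ly6a, Serpina3n, Steap4, Muc5b, Adh1, Foxa1 and Ly6d. They also held 4 ciliary genes (Tmem212, Sntn, Ccdc153 and Cdhr4) and the basal keratin Krt15. Of the xenobiotic enzymes 26 of 30 were higher than in other barcodes and 2 lower. Without Cyp2f2 and Cyp2g1, which the rule used, 25 of 28 were higher, 2 lower and 1 neither. All 11 immediate early and heat shock genes were higher, led by Fos at 4879 ± 445 against a mean of 1031 CPM. Against sustentacular barcodes only Atf3 and Hspa1b of these 11 were higher. The tissue was dissociated enzymatically, and the part of that step in these levels was not tested.

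The share of members did not separate the sexes beyond what the design can show. Members made up 6.25% and 4.49% of the barcodes that passed in the female libraries and 3.27% and 4.10% in the male ones, or 5.37 ± 1.25% against 3.69 ± 0.59% (SD, n = 2 libraries each). Both female shares lay above both male shares. The exact two-sided permutation test gave p = 0.333, the smallest value that 2 libraries against 2 allow. Female 1 was 1 of 2 libraries with cluster 10 and had the highest share, and without it the difference was 0.80 percentage points in place of 1.68.

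Few genes differed between the sexes in the summed counts of members. With edgeR's quasi-likelihood test and Benjamini-Hochberg adjustment over 12810 genes, 5 (0.039%) passed an adjusted p of 0.05: 4 Y-linked genes higher in males, and Chil4 higher in females. At an unadjusted p under 0.05 there were 485 genes (3.79%), and DESeq2 called 17 (0.133%). Leaving out 1 library gave 3 calls without male 1, 8 without male 2, 9 without female 2 and 12 without female 1. Nothing in the labels says whether the libraries came from separate animals, so these p-values measure the spread between the libraries, which may be partly technical. The Y-linked genes checked the labels: Eif2s3y had 0 UMIs in the members of both female libraries and 168 and 247 in male 1 and male 2, Ddx3y 0, 0, 121 and 169, Uty 0, 0, 61 and 78, and Kdm5d 0, 0, 47 and 48. Set against a floor of 3 UMIs over the female members, Eif2s3y was at least 210-fold higher in males. The adjusted p of edgeR was 0.000854 for Eif2s3y, 0.00131 for Ddx3y, 0.0164 for Uty and 0.0477 for Kdm5d. Uty missed the threshold without male 1 (adjusted p = 0.120 by edgeR) or male 2 (0.0956), as did Kdm5d (0.215 and 0.174).

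Chil4 (ENSMUSG00000063779, chr3:106201490-106219507 on the minus strand, GRCm38) was the only autosomal gene past the threshold. It stood at 337 and 738 CPM in the members of female 1 and female 2 and at 35.2 and 24.0 CPM in male 1 and male 2. Both female values lay above both male values. The log2 fold change of males over females was -4.13 (SE 0.40, adjusted p = 0.0466 by edgeR's quasi-likelihood test), an 18.1-fold difference of the means. Its near copy Chil3 lies on the same chromosome and shares 94.4% of aligned transcript bases with it, so reads could be split between the copies. Chil3 was at 0.2 to 6.9 CPM.

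The Chil4 difference rested on few barcodes, and on different clusters in the 2 female libraries. At least 1 Chil4 UMI was found in 47 of 639, 25 of 438, 9 of 316 and 11 of 413 members, and at least 10 UMIs in 19, 11, 3 and 2. The 3 highest barcodes held 56.4% of 2919 and 91.5% of 4513 Chil4 UMIs in the female libraries, and 90.9% of 143 and 88.1% of 135 in the male ones. In female 1 the 2 highest, with 696 and 572 UMIs, lay in clusters 7 and 9. In female 1, 13 of the 19 members with at least 10 UMIs were sustentacular-like (cluster 1) and 2 belonged to cluster 2, while in female 2, 6 of 11 belonged to cluster 2 and 4 to cluster 1. In cluster 2 alone Chil4 stood at 45.4, 2555, 116 and 36.6 CPM, so that female 1 lay below male 1. Without the highest barcode of each gene in each library, which was an added check, the log2 fold change was -4.36 and the adjusted p 0.00471 by the same test. With doublets removed, the adjusted p was 0.0742. Over 16 alternative settings Chil4 passed in 10 and missed in 6, namely with a threshold of 40 UMIs (adjusted p = 0.509 by edgeR), with Reg3g and Bpifa1 alone at 20 UMIs (0.278), with all 3 rule genes detected (0.144), with doublets removed, without male 1 (adjusted p = 0.160 by edgeR) and without male 2 (0.235), with log2 fold changes from -4.60 to -3.44. Chil4 was not confined to members. Sustentacular barcodes stood at 73.2, 53.9, 39.6 and 19.1 CPM and held 24.9 to 83.9% of the Chil4 UMIs of a library's barcodes that passed. The other barcodes that passed stood at 26.99 CPM or more in the female libraries, against 2.54 and 5.20 CPM in male 1 and male 2. Among neurons, 2.57, 1.37, 0.115 and 0.197% held at least 1 Chil4 UMI. Female values thus lay above male values outside the members too, and the sex difference in the other barcodes was not tested.

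**Figure D5:**
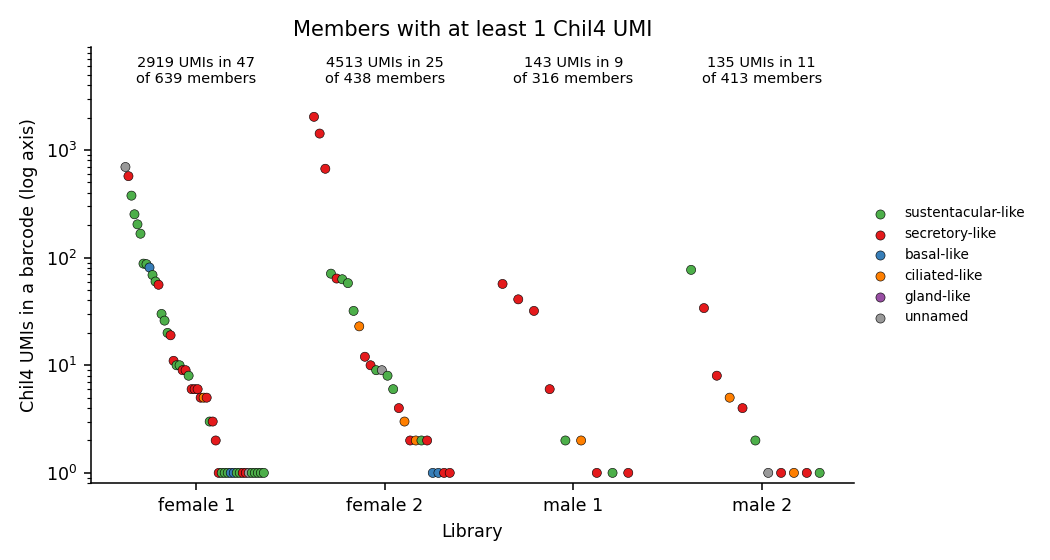
Chil4 UMIs (vertical, log axis) of each member with at least 1, by library (horizontal), sorted within a library and coloured by the group of its cluster. The 3 highest barcodes of female 2 are secretory-like, most of the higher ones in female 1 are sustentacular-like, and male 1 and male 2 have 3 and 2 members with 10 or more UMIs.

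The test of whether the sex difference has the same size in members and in sustentacular barcodes called 0 of 14991 genes (0%) with edgeR's quasi-likelihood test, 643 (4.29%) at an unadjusted p under 0.05, and 6 with DESeq2. For Chil4 the difference of the 2 log2 fold changes was -2.89 (SE 0.49, adjusted p = 0.436 by edgeR). It passed without female 1 (adjusted p = 0.000935), without female 2 (0.0322), with no filter on low counts (0.00145) and with a replicate block (3.08e-05), so the call depended on the setting. Chil4 was also higher in both female than in both male libraries among sustentacular barcodes and among the other barcodes that passed. The latter were not part of this test.

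No listed gene other than Chil4 passed the adjusted threshold, which 0.039% of all genes did, so counts of 0 say little about a list. Of 20 secreted defence genes tested 0 passed the adjusted threshold and 6 had an unadjusted p under 0.05, against 3.79% of all genes. Their median log2 fold change was 0.19 against 0.00 over all genes. The defence list includes Reg3g and Bpifa1, which the rule used, and these sex counts were not made without them. Of 3 immune markers tested, 2 had an unadjusted p under 0.05, with a median log2 fold change of 1.16. Among these markers, C1qa had UMIs in only 7, 3, 6 and 3 members. At the adjusted threshold the counts were 0 of 15 for the mucus list and 0 of 32 for xenobiotic enzymes. They were 0 of 15 for airway transcription factors, 0 of 18 for secretory machinery and 0 of 7 for MHC class II genes. With an unadjusted p under 0.05 the counts were 0, 1, 1, 1 and 0 in the same order. The xenobiotic list includes Cyp2f2 and Cyp2g1, which the rule used.

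Apod and Bpifb3 also rested on few barcodes. Apod, a secreted lipocalin, stood at 108 and 193 CPM in females and 1.7 and 10.9 CPM in males (adjusted p = 0.0953 by edgeR), but 1 barcode held 863 of its 939 UMIs in female 1 and 1 held 1052 of 1182 in female 2. Bpifb3, a further BPI-fold gene that was far from the threshold (adjusted p = 0.9999 by edgeR), had 3726 of 5296 UMIs in 1 barcode of female 1, 2046 of 3916 in 1 of female 2 and 1759 of 1954 in 1 of male 2. All of these Bpifb3 barcodes were gland-like, and only 5, 4, 1 and 1 members of cluster 12 had 10 or more Bpifb3 UMIs. Cxcl1, a neutrophil-attracting chemokine, was spread more widely, at 59.8 and 63.8 CPM in females and 29.1 and 30.8 CPM in males, with an adjusted p of 0.0773 by edgeR. It did not pass, although its groups did not overlap. The immune signalling gene Tyrobp (adjusted p = 0.103 by edgeR) stood at 6.12 and 6.05 CPM in females and 16.8 and 22.8 CPM in males. Tyrobp too rested on few barcodes, with UMIs in 8, 4, 7 and 3 members. The 3 highest held 90.6, 97.3, 80.9 and 100% of its UMIs.

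A comparison of the sexes within the Bpifa1-rich cluster 2 alone was added after the clusters had been seen. It called 5 of 8753 genes (0.0571%) with edgeR's quasi-likelihood test, against 507 (5.79%) at an unadjusted p under 0.05. These were Eif2s3y, Ddx3y and Uty, higher in males, Prdx6, higher in males, and Lcn2, lower in males. Leaving out 1 library gave 35 to 97 calls (43 without female 1, 64 without female 2, 35 without male 1 and 97 without male 2), so the count was not stable. Prdx6, an antioxidant peroxiredoxin, was at 5619 and 6198 CPM in females and 8174 and 8430 CPM in males (log2 fold change 0.56, SE 0.08, adjusted p = 0.0196). The highest barcode held 6.7 to 11.7% of its UMIs in a library, so it did not rest on single barcodes, but it missed the threshold without female 1 (log2 fold change 0.47, adjusted p = 0.22). Lcn2, an iron-chelating antibacterial lipocalin, was at 265 and 295 CPM in females and 95.7 and 136 CPM in males (log2 fold change -1.20, SE 0.16, adjusted p = 0.00915). The highest barcode held 38.5% and 40.5% of its UMIs in the female libraries, and without the highest barcode of each gene the log2 fold change was -0.68 with an adjusted p of 0.157 by edgeR.

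Depth was somewhat higher in both female than in both male libraries, the same direction as the share of members under a fixed limit of 20 UMIs. Libraries held 111577458 and 104782202 UMIs in females and 100725429 and 101346759 in males. Medians of members were 11608 and 11986 against 10578 and 11341 UMIs, and those of other barcodes 8367 and 8013 against 7779 and 7482. The part of depth in the share was not tested. Between libraries, 136 to 172 barcode sequences were shared in each pair, of which 0 were members in both.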

How the data were processed

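The deposited matrices hold UMI counts per gene and cell barcode, not normalized. The authors counted them with Cell Ranger, version 6.0.2 per the file headers and 5.0.1 with mm10 per the submitters' processing notes. The annotation release is not given in the sources used here. UMI counts cover counting error only in their intervals. Counts were summed over members of each library, the unit of replication, and tested with edgeR 4.0.16 (R 4.3.3; TMM scaling, filterByExpr, adjusted p under 0.05); DESeq2 1.42.0 was an alternative. Levels are counts per 1000000 UMIs summed over a library's barcodes of a class (CPM). Clustering used 2000 variable genes, 30 components, 15 neighbours and Leiden (leidenalg 0.10.2) at resolution 0.5 (1 as a check), without rule genes, Chil3, Chil4, Y-linked, olfactory receptor and mitochondrial genes. Doublets were scored against simulated sums of barcode pairs and marked at 0.8% per 1000 barcodes; they were kept except in an alternative. Gene positions come from GENCODE M21. Named genes were those past the threshold in the sex tests, the rule and marker genes, the listed genes of highest level or ratio, the 20 highest ratios to other barcodes, and 5 leading genes per cluster, except items not reported here; Apod, Bpifb3, Cxcl1, and the genes contrasting clusters 2, 9 and 10 were chosen after their values were seen. Members and gene lists were chosen with earlier results of these data known. The fits were tested on simulated data.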

Additional observations from a re-analysis of the deposited data

How the results depend on the processing

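Of the 5 sex calls in members, counts were 3 with the threshold of 40 UMIs, 8 with all 3 rule genes detected, 8 with members thinned to 2000 UMIs, 118 with no filter on low counts, 17 with DESeq2, and 8 without the highest barcode of each gene (added after seeing the data). Leaving out each library in turn gave 3 to 12. Apart from the block below, the other settings stayed within 1.5 times. Uty and Kdm5d also missed the threshold when a male library was left out. Only 3 of the 4 Y-linked genes were called with the threshold of 40 UMIs, with Reg3g and Bpifa1 alone at 20 UMIs, and with thinned members. For sex by class, 0 calls became 19 with no filter, 6 with DESeq2, 2 with doublets removed and 3 to 6 with a library left out. In cluster 2, the 5 calls became 10 without the highest barcode of each gene and 35 to 97 with a library left out; the log2 fold change of Chil4 there ran from -5.14 without male 1 to 0.85, the reverse direction, without female 2. The difference in share was 0.589 percentage points when Reg3g and Bpifa1 alone had to reach 20 UMIs, and 0.80 to 2.57 with a library left out. Genes lower in members than in sustentacular barcodes numbered 1156 by that stricter rule and 429 with barcodes thinned to 2000 UMIs. The cause was not tested. Deviations of same-numbered libraries correlated at r = 0.053 between female 1 and male 1. With 2 libraries per sex this is a single value and cannot decide whether the replicate numbers mark pairs. They were not taken as pairing in the main fits, although MHC class II genes differed by replicate number in both sexes (below). With the replicate block, 8 genes were called for sex and 16 for sex by class. Clusters 9, 12 and 13 had under 10 members in some libraries, which limits their values.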

Other observations

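MHC class II genes, which present antigen and are induced by interferon gamma, were higher in the libraries numbered 2 than in those numbered 1, in both sexes. The invariant chain gene Cd74 stood at 480 and 510 CPM in the members of female 1 and male 1 and at 1541 and 1514 CPM in those of female 2 and male 2. H2-Ab1 stood at 119 and 117 CPM against 429 and 420 CPM. Sustentacular barcodes showed the same order at lower levels, with Cd74 at 74.8 and 43.3 against 231 and 210 CPM. Members with at least 50 Cd74 UMIs numbered 20 of 639 and 58 of 438 in the female libraries, and 11 of 316 and 45 of 413 in the male ones. Of these, 13, 42, 8 and 30 were sustentacular-like members of cluster 1. The pattern was noticed after the values were seen and was given no test.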
